A study of Mus musculus with 2 samples.

Results

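The genes described here are the 4 adult globin genes of the mouse (*Hba-a1*, *Hba-a2*, *Hbb-bs* and *Hbb-bt*) and 4 further genes of the red cell lineage (*Alas2*, *Slc4a1*, *Bpgm* and *Klf1*), measured by mRNA sequencing of liver. They were taken by symbol, and all 8 were found among the 53241 distinct symbols of the 2 libraries. The 8 genes were picked with their values in these same libraries known, so their levels and ratios are a description and no test was made on them. The study compared 1 control liver library with 1 iFIRKO liver library. The iFIRKO sample is labelled Adipoq-CreERT2; Insr flox/flox, so that tamoxifen activates a Cre recombinase, driven by the promoter of the adipocyte gene *Adipoq*, and deletes the insulin receptor gene in adipocytes. The control is labelled WT, whereas the methods of the study give its controls as IR flox/flox. Both groups were male, were 7 weeks old when tamoxifen at 100 mg/kg was injected on 5 consecutive days, and were examined 3 days after the last dose. The sources used here do not state whether a library came from 1 mouse or from a pool, or whether blood was washed out of the liver before RNA extraction.

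Haemoglobin carries oxygen as a tetramer of α- and β-globin chains, each holding a heme group. In adult mice red cells are formed in bone marrow and spleen. The circulating reticulocyte, the youngest red cell, has lost its nucleus and still holds globin mRNA, so any whole-tissue sample that contains blood contains globin reads. *Alas2* encodes the erythroid form of the first enzyme of heme synthesis, *Slc4a1* encodes band 3, the anion exchanger of the red cell membrane, and *Bpgm* encodes the enzyme that makes 2,3-bisphosphoglycerate, which lowers the oxygen affinity of haemoglobin. *Klf1* encodes the erythroid Krüppel-like factor, a transcription factor of red cell precursors that binds CACCC boxes such as the one in the β-globin promoter.

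The globin genes come in near-identical copies, and the sequences show how little there is to tell the copies apart. *Hba-a1* and *Hba-a2* lie on chromosome 11 of GRCm38 (forward strand, 32283511 to 32284465 and 32296489 to 32297298), and *Hbb-bs* and *Hbb-bt* lie on chromosome 7 (reverse strand, 103826534 to 103828096 and 103812524 to 103813996). Each has 3 exons. The 426 coding bases of *Hba-a1* and *Hba-a2* differ at 1 position (C381T, counted from the first base of the start codon, with *Hba-a1* first), and the 441 coding bases of *Hbb-bs* and *Hbb-bt* also differ at 1 position (C417T, with *Hbb-bs* first). The coding stretches around these positions, from the GENCODE M21 transcripts and with the differing base in capitals, are given from 5′ to 3′.
Hba-a1, coding bases 351 to 411: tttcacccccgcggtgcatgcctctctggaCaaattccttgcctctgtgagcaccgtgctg
Hba-a2, coding bases 351 to 411: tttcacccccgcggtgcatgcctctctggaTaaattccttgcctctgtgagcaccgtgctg
Hbb-bs, coding bases 381 to 441: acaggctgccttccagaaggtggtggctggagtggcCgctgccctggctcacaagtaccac
Hbb-bt, coding bases 381 to 441: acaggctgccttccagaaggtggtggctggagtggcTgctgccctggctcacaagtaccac

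Shared stretches were also counted over whole transcripts, coding bases included. Of all 100-base windows of the *Hba-a1* transcript, 56.5% occurred unchanged in *Hba-a2*, and 74.5% of those of *Hba-a2* occurred in *Hba-a1*. For *Hbb-bs* in *Hbb-bt* the share was 62.6%, and for *Hbb-bt* in *Hbb-bs* it was 54.8%. The coding difference and unequal transcript lengths (699 and 554 bases for *Hba-a1* and *Hba-a2*) lower these shares. They therefore do not measure how far the copies differ outside the coding sequence. No 100-base window of *Hba-a1* occurred in *Hbb-bs*. The way in which the authors divided reads between copies is not given in the sources used here, so the α copies and the β copies were also summed.

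Promoter stretches are shown next, because factors of the red cell lineage are known to bind motifs in such regions, and one of these factors, *Klf1*, is among the genes measured. RefSeq sequences (GRCm38.p6) of the 250 bases before the gene start were found for 7 of the 8 genes. The exception was *Slc4a1*. The RefSeq start used here and the GENCODE gene ends given for these genes differ, so that the stretches shown for *Hba-a1*, *Hbb-bs*, *Hbb-bt* and *Bpgm* lie before the RefSeq start but inside the GENCODE gene, and the one for *Alas2* overlaps its GENCODE start. Both strands were searched for CCNCNCCC (a CACCC box), for GATA preceded by A or T and followed by A or G (a GATA site), for CCAAT, and for TATAA followed by A or G (a TATA box), and the 30 bases richest in these motifs are given 5′ to 3′ on the gene's strand with every match in capitals. Matches of different motifs did not overlap.
Hba-a1, chr11:32283633-32283662, forward strand: ccttggagggcaTATAAGtgctacttgctg
Hba-a2, chr11:32296450-32296479, forward strand: ccttggagggcaTATAAGtgctacttgctg
Hbb-bs, chr7:103827996-103828025, reverse strand: agagCCACACCCtggtaagggCCAATctgc
Hbb-bt, chr7:103813938-103813967, reverse strand: gagccagcATTGGgtaTATAAAgctgagca
Alas2, chrX:150547372-150547401, forward strand: gaaGGGGGTGGGGTGGGGtGGGCGGGGctg
Bpgm, chr6:34476235-34476264, forward strand: cgctggccagaGGGCGGGGccgtgaatgag
Klf1, chr8:84901897-84901926, forward strand: gggtcTTATCAgggaagacagCCAATcaga

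A CACCC box was present in 4 of the 7 regions (*Hbb-bs*, *Hbb-bt*, *Alas2* and *Bpgm*), against 45.9% of 32851 RefSeq promoter regions of the same length. A GATA site was present in 5 of 7 (*Hba-a1*, *Hba-a2*, *Hbb-bs*, *Alas2* and *Klf1*), against 26.5% of all. CCAAT was present in 6 of 7, in all but *Alas2*, against 33.8%, and a TATA box in 5 of 7, in the 4 globins and *Alas2*, against 17.0%. The 250 bases before *Hba-a1* and *Hba-a2* were 97.6% identical when aligned, and those before *Hbb-bs* and *Hbb-bt* were 70.5% identical. Hence the α promoters are near-copies, whereas the β promoters differ although their coding sequences hardly do. These matches are letters found in a window and no binding was measured.

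Both libraries were deep. Gene reads were estimated at 42277000 for control liver and 41305500 for iFIRKO liver, and *Alb*, the most abundant hepatocyte mRNA of the markers examined, made up 9.92% and 9.49% of the reads, so both were liver by their markers. *Insr* was at 4246 normalized reads in control liver and 3692 in iFIRKO liver, a log2 ratio of -0.20 (95% interval -0.29 to -0.11), in a tissue where the deletion is not directed. A normalized read is taken here as an estimated read count, often not whole, scaled by 1 factor per library. A level of 41.8 normalized reads corresponds to a counts-per-million value (CPM) of 1. Log2 ratios are iFIRKO over control after a pseudocount of 4.18 normalized reads, and a gene counted as tested when either library reached a CPM of 1. With 1 library a group there is no replicate error, and the intervals given (95%, exact Clopper-Pearson, on estimated read pairs) hold counting error alone, so they set one library against the other and not the genotypes. Over the 13390 genes tested the median log2 ratio was 0.008. Ratios above 1.5-fold in favour of iFIRKO liver made up 4.46% of them and ratios of the same size in favour of control liver 7.29%. Among the 8373 genes with either library at a CPM of at least 10 these shares were 2.42% and 3.55%.

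The 4 adult globins were each between 1.93-fold and 1.98-fold higher in the iFIRKO liver. *Hbb-bs* had 4415 normalized reads in control liver and 8679 in iFIRKO liver, a log2 ratio of 0.97 (interval 0.90 to 1.05). *Hbb-bt*, the second β copy, had 2229 and 4297, a log2 ratio of 0.95 (0.84 to 1.05). *Hba-a1* had 3358 and 6524, a log2 ratio of 0.96 (0.87 to 1.04), and *Hba-a2* had 2786 and 5520.4, a log2 ratio of 0.99 (0.89 to 1.08). The 4 ratios lay within 0.05 of one another on the log2 scale and each interval contained the other 3 values. The copies of a pair share reads, so these are not 4 separate measurements. Summed, the α copies went from 6143 to 12044 normalized reads, the β copies from 6644 to 12976 and all 4 from 12788 to 25019.9, a fold of 1.96 with an interval from 1.90 to 2.02. As a share of all reads, globins had a CPM of 304 in control liver (interval 297 to 312) and of 602 in iFIRKO liver (591 to 612). Of all tested genes, 1.68% had a ratio above that of the summed globins. In whole tissue, a different number of red cells and a different amount of globin mRNA per cell cannot be told apart.

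*Alas2* (chromosome X, 150547375 to 150570638, forward strand) had the largest ratio of the 8 genes. Its 639.7 normalized reads in control liver stood against 1921 in iFIRKO liver, a fold of 2.99 (interval 2.64 to 3.42) and a log2 ratio of 1.58. Its interval lies wholly above that of the globins. The gene overlaps *Apex2*, a DNA repair gene on the opposite strand, and 311 of the 2037 bases of the longest *Alas2* transcript are also exonic in *Apex2*. *Apex2* itself had 425 and 438 normalized reads, a log2 ratio of 0.04 (-0.24 to 0.32), and the libraries were made with a stranded kit although the strand setting of the counting is not given.

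*Slc4a1* (chromosome 11, 102348824 to 102366203, reverse strand) was at 27.8 normalized reads in control liver and 64.4 in iFIRKO liver, from 14 and 32 read pairs. The fold was 2.14, with a wide interval from 1.20 to 4.70. The gene reached the minimum level through the iFIRKO library alone, so that its inclusion required a difference. *Bpgm* (chromosome 6, 34476207 to 34505613, forward strand) was at 571 and 719 normalized reads, a fold of 1.26 (1.08 to 1.48). It did not pass the 1.5-fold threshold, and its interval lies below that of the globins. *Bpgm* is also expressed outside the red cell lineage.

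*Klf1* (chromosome 8, 84901928 to 84905291, forward strand) went the other way. It was at 105 normalized reads in control liver and 50.3 in iFIRKO liver, from 53 and 25 read pairs, a log2 ratio of -1.01 (interval -1.81 to -0.35). In the count, 6 of the 8 genes were more than 1.5-fold higher, 1 was more than 1.5-fold lower and 1 was neither, beside 4.46% higher and 7.29% lower over all tested genes. As the genes were chosen on this contrast, nothing is read from that count.

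**Figure D1:**
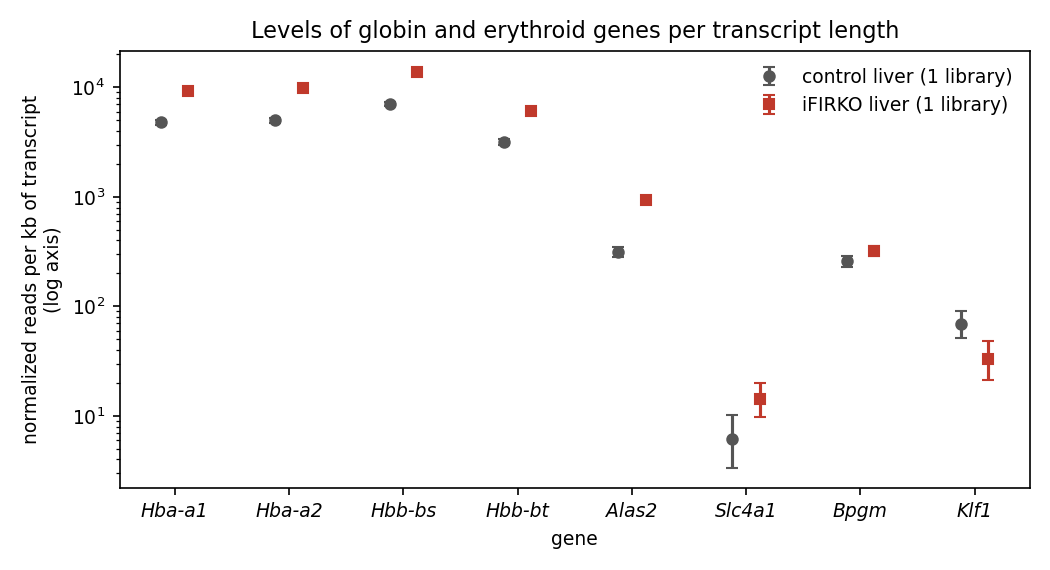
Normalized reads per kb of the longest protein-coding transcript (log axis) of the 8 genes, with the control library as grey circles and the iFIRKO library as red squares, and bars giving 95% exact Poisson intervals of counting error. The globins stand between 3171 and 13820 reads per kb, Alas2 and Bpgm between 257 and 943, and Klf1 is the only gene with its iFIRKO value below its control value.

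Per length of the longest protein-coding transcript, the order of the 8 genes was the same in both libraries. The order among the globins depends on the lengths used and on the division of shared reads, which is not given. *Hba-a1* (699 bases) had more reads than *Hba-a2* (554 bases) in both libraries and stands below it only through length. *Hbb-bs* was highest with 7030.2 normalized reads per kb in control liver and 13820 in iFIRKO liver, followed by *Hba-a2* (5028 and 9965), *Hba-a1* (4804 and 9333) and *Hbb-bt* (3171 and 6113). The counting intervals of the neighbours *Hba-a2* and *Hba-a1* overlapped in control liver (4769 to 5299 and 4578 to 5039) and in iFIRKO liver (9595 to 10345 and 9013 to 9659), so their order is not resolved. *Alas2* followed with 314 and 943 reads per kb and *Bpgm* with 257 and 324, and this pair of neighbours overlapped in control liver (281 to 350.4 and 228 to 288) but not in iFIRKO liver (884 to 1005 and 291 to 359). *Klf1* (68.9 and 32.9) stood above *Slc4a1* (6.12 and 14.2) even in the iFIRKO library. The intervals of the 2 genes stayed apart in iFIRKO liver, from 21.3 to 48.6 for *Klf1* and from 9.70 to 20.01 for *Slc4a1*.

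Ratios taken inside a library do not depend on how that library was scaled. The ratio of α to β globin reads was 0.925 in the control library (interval 0.880 to 0.971) and 0.928 in the iFIRKO library (0.896 to 0.962). *Hba-a1* to *Hba-a2* stood at 1.21 and 1.18, and *Hbb-bs* to *Hbb-bt* at 1.98 and 2.02, with overlapping intervals in each case. The α to β proportion therefore differed between the libraries by less than counting error. How shared reads were divided between the copies of a pair is not known. The ratios within a pair therefore cannot show whether the copies kept their proportions, and their intervals take each read as assigned independently.

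The other genes did not keep a fixed proportion to the globins. For every 100 adult globin reads there were 5.00 reads of *Alas2* in the control library (4.46 to 5.60) and 7.68 in the iFIRKO library (7.18 to 8.20). For *Bpgm* there were 4.47 (3.95 to 5.02) and 2.87 (2.58 to 3.19), and for *Klf1* 0.824 (0.616 to 1.08) and 0.201 (0.130 to 0.297). *Alas2* was thus higher and *Bpgm* and *Klf1* lower relative to globin in the iFIRKO library, with intervals that do not overlap. *Slc4a1* stood at 0.218 (0.119 to 0.365) and 0.257 (0.176 to 0.364), and at this depth no difference relative to globin was detectable.

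**Figure D2:**
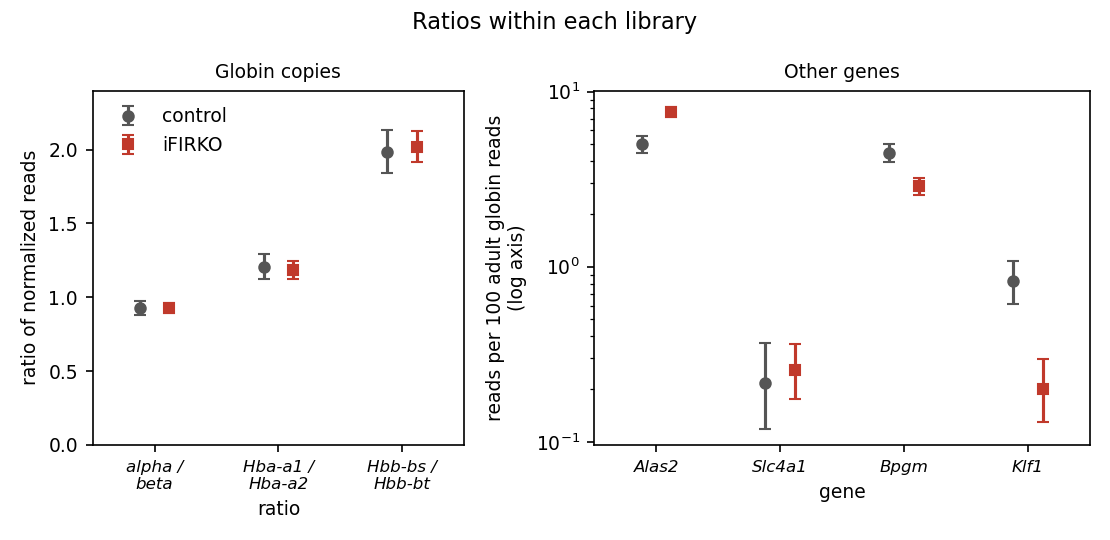
Ratios of reads inside each library (control, grey circles, and iFIRKO, red squares, with bars giving 95% exact intervals of counting error), on the left among globin copies (linear axis) and on the right as reads of each other gene per 100 adult globin reads (log axis). The α to β ratios nearly coincide at 0.925 and 0.928, while Alas2 goes from 5.00 to 7.68 and Klf1 from 0.824 to 0.201.

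The remaining globin genes were at or near 0. *Hba-x*, *Hbb-y*, *Hbb-bh0*, *Hbb-bh1*, *Hbb-bh2* and *Hbq1a* were listed at 0 in both libraries, and *Hbq1b* had 1 read pair in the control library and none in the iFIRKO library. *Hba-x* and *Hbb-y* are the globins of the primitive red cells of the embryo, and the globin reads were thus assigned to the adult genes. *Mir144*, *Mir451a* and *Mir486*, whose miRNAs are abundant in red cells, were also listed at 0 in both libraries, as were *Mir451b* and *Mir3107*, although a library of poly(A) RNA is not made to capture mature miRNAs. *Gata1*, the founding transcription factor of the lineage, and *Cldn13* were listed at 0 as well.

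To set the 8 genes beside the rest of the lineage, lists of red cell genes were compared by role. Without the 8 genes the lists held 73 genes found in the files, of which 40 were tested. Of the tested genes 4 (*Sptb*, *Car1* and *Zfpm1* among them) were more than 1.5-fold higher, beside 4.46% over all tested genes. Another 5 (*Nfe2*, *Lyl1*, *Epor*, *Tal1* and *Cd24a*) were more than 1.5-fold lower, beside 7.29% over all tested genes. The median log2 ratio of these 40 genes was 0.001, against 0.008 for all tested genes. Many of them, such as *Cat* and *Fech*, are also expressed by hepatocytes.

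In the erythroid heme and iron list *Alas2* was the only 1 of 8 tested genes past the threshold, beside 4.46% higher over all tested genes. *Fech*, the last enzyme of heme synthesis, had 4933 and 4574 normalized reads, *Tfrc*, the transferrin receptor, had 3426 and 3444, and *Glrx5*, an iron-sulfur cluster protein, had 1902 and 2598. *Eif2ak1*, the heme-regulated kinase that matches globin synthesis to heme, had 1594 and 1682. None of these 4 passed the 1.5-fold threshold in either direction.

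Among membrane genes 2 of 6 tested were higher, *Slc4a1* and *Sptb*, beside 4.46% over all tested genes. *Sptb*, which encodes β-spectrin of the membrane skeleton, had 33.8 normalized reads in control liver and 93.6 in iFIRKO liver, a log2 ratio of 1.37 (interval 0.62 to 2.35), and like *Slc4a1* it was tested through the iFIRKO library alone. The 3 most abundant genes of this list were *Epb41* (6094 and 6635 normalized reads), *Aqp1* (2388 and 1843) and *Gypc* (628 and 529.7), none past the threshold. Of the defining markers of red cells, *Ermap* had 1 read pair in control liver and 1 in iFIRKO liver, and *Rhag* had 1 and 0. In all, 4 of the 10 defining erythroid markers were under the minimum in both libraries, and the lineage was seen mainly through the globins and *Alas2*.

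Of the red cell enzymes 1 of 7 was higher, beside 4.46% over all tested genes. *Car1*, the red cell carbonic anhydrase, had 79.6 and 136 normalized reads, a log2 ratio of 0.74 (0.18 to 1.37). *Cat* (94091 and 103399), *Hagh* (10867 and 11510.5) and *Prdx2* (4128 and 3733) were the most abundant and did not pass. The list of reticulocyte maturation genes had a median log2 ratio of 0.03 over 12 tested. Of these *Cd24a* was the 1 lower gene, beside 7.29% lower over all tested genes. It had 173 and 103, a log2 ratio of -0.73 (-1.28 to -0.24). *Fam210b*, *Ube2l6* and *Bnip3l*, which clears mitochondria from reticulocytes, were the most abundant of this list, with log2 ratios of 0.22, 0.02 and -0.09.

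Transcription factors and receptors of the lineage had a median log2 ratio of -0.55 over 10 tested genes, with 5 lower, *Klf1* among them, and 1 higher. Over all tested genes the shares were 7.29% lower and 4.46% higher. *Nfe2*, a factor of late red cell precursors that megakaryocytes and neutrophils also express, had 55.6 normalized reads in control liver and 11.3 in iFIRKO liver, a log2 ratio of -1.95 (-3.77 to -0.90). *Lyl1* (53.9 and 23.7) and *Tal1* (75.2 and 48.3), related factors that endothelial cells also express, had log2 ratios of -1.06 (-2.27 to -0.12) and -0.60 (-1.45 to 0.13). *Epor*, the erythropoietin receptor, had 60.2 and 37.4 normalized reads, a log2 ratio of -0.63 (-1.55 to 0.24). For *Tal1* and *Epor* the interval includes no difference, and *Nfe2*, *Lyl1* and *Epor* were tested through the control library alone. The exception was *Zfpm1*, which encodes the GATA cofactor FOG1, with 676 and 1300.0 normalized reads and a log2 ratio of 0.94 (0.75 to 1.14). *Ldb1* (1324 and 1097) and *Kit* (254 and 204) did not pass the threshold.

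**Figure D3:**
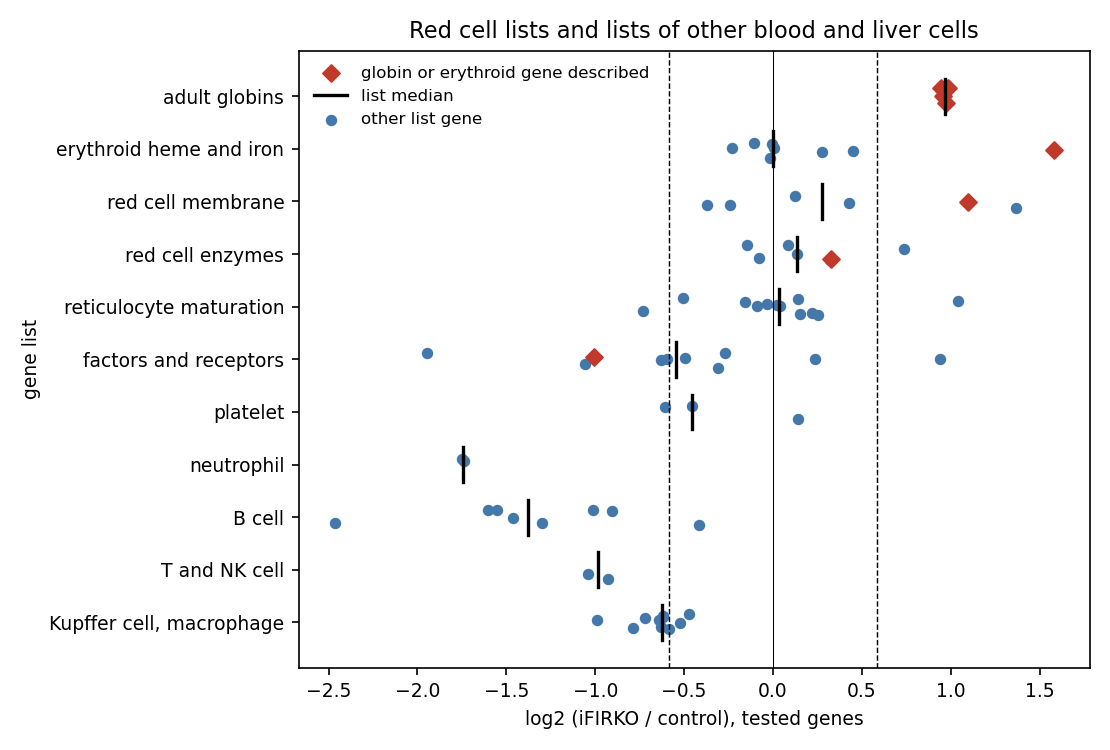
Log2 ratio of iFIRKO over control (horizontal axis) of each tested gene in 11 gene lists (vertical axis), with the 8 genes described as red diamonds, other genes as blue circles, list medians as black bars and the 1.5-fold limits dashed. The adult globins stand together at 0.95 to 0.99, Alas2 at 1.58 lies apart from its list, and the neutrophil and B cell genes lie to the left.

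Genes of other blood and liver cells did not share the ratio of the globins. Of 29 neutrophil, B cell, T and NK cell genes 12 were tested, and of these 11 were more than 1.5-fold lower and none was higher, beside 7.29% lower over all tested genes. *S100a8*, *Cd79a*, *Cd79b*, *Pax5* and *Gzma* reached the minimum through control liver alone, so that their inclusion required a lower iFIRKO value. The tested genes were 2 of 10 for neutrophils, 8 of 9 for B cells and 2 of 10 for T and NK cells. The neutrophil genes *S100a8* and *S100a9* had log2 ratios of -1.74 and -1.75, and *Cxcr2*, next in the list by the mean of both libraries, was below the minimum. Of the B cell genes 7 were lower, *Cd79a*, *Ighd*, *Igkc*, *Pax5*, *Ighm* and *Cd22* among them, with a list median of -1.38, and of the T and NK cell genes *Cd4* and *Gzma* were lower, while *Cd3g* was below the minimum. The summed level of these lists went from 475 to 161 normalized reads for neutrophils, from 1276 to 519 for B cells and from 341 to 180.2 for T and NK cells. Platelet genes, 3 of 10 tested, were at 337 and 247 normalized reads in sum, with *Itga2b* at a log2 ratio of -0.61, *Ppbp* at -0.46 and *Pf4* at 0.14.

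Kupffer cell and macrophage genes, which mark the cells that take up aged red cells, were lower in 8 of 10 cases (*Cd5l*, *Clec4f*, *C1qa*, *C1qb*, *C1qc*, *Timd4*, *Cd68* and *Adgre1*), beside 7.29% over all tested genes, with a median of -0.62, and *Csf1r* was at -0.47. Of 9 endothelial genes 3 were lower (*Kdr*, *Fcgr2b* and *Pecam1*), beside 7.29% over all tested genes, and 6 did not pass. The endothelial median was -0.47, and the most abundant, *Stab1* and *Stab2*, were at -0.30 and -0.23. Hepatocyte markers had a median of -0.17, with *Alb* at -0.08, *Serpina1a* at 0.03, *Ttr* at 0.29 and *Apoa1* past the threshold at -0.94. The part of blood content or cell composition in the values of the 8 genes was not tested.

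**Figure D4:**
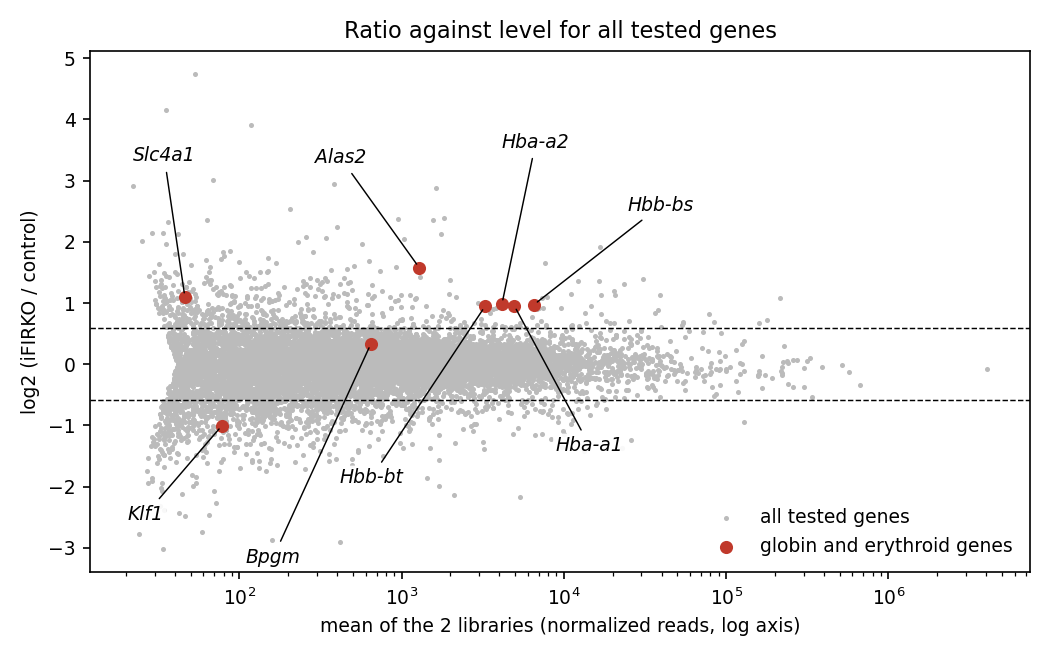
Log2 ratio of iFIRKO over control against the mean of the 2 libraries in normalized reads (log axis) for 13390 tested genes (grey), with the 8 genes described in red and the 1.5-fold limits dashed. The 4 globins form a tight group near 0.97, above most genes of their level, while Slc4a1 and Klf1 lie at low level, where the ratios of all genes scatter more widely.

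The nearest tested gene on each side of each locus was also examined. Genes that overlap a locus, such as *Apex2* at *Alas2*, were left out. *Nprl3*, the nearest tested gene to the α genes, 15804 bp away, had 574 and 657 normalized reads, a log2 ratio of 0.19 (-0.04 to 0.43). On the other side *Sh3pxd2b* was at 0.01. The β genes had no close tested neighbour. *Trim6*, 390697 bp away, had 44.8 normalized reads in control liver and 3.01 in iFIRKO liver, too few in the latter for a fold, and *Trim68*, 1125197 bp away, was at -0.05. *Pfkfb1*, 17591 bp from *Alas2*, had a log2 ratio of 0.23 (0.09 to 0.38), with *Tmem29* on the other side at -0.09. *Gcdh* and *Dnase2a*, the neighbours of *Klf1*, were at 0.04 and 0.05. Beside *Slc4a1*, *Ubtf* was at -0.12 and *Rundc3a* at -0.66 (-1.77 to 0.15), and beside *Bpgm*, *Cald1* was at 0.03 and *Akr1b7* at -1.70 (-2.58 to -1.13). No nearest neighbour passed 1.5-fold upwards, beside 4.46% of all tested genes. *Trim6*, *Rundc3a* and *Akr1b7* were lower past that threshold, beside 7.29% of all tested genes. That share also counts genes with as few reads as *Trim6*, for which no fold is given. *Rundc3a* and *Trim6* reached the minimum through control liver alone, so that their inclusion required a lower iFIRKO value.

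With 2 libraries a pattern is a single ratio, and 16 of 8306 genes lay within 0.05 of the log2 ratio of the summed globins, among genes reaching a CPM of 10 in either library with the 8 genes and all list genes left out. The 5 nearest were *Trim7* (417 and 822 normalized reads), *Alpl* (414 and 811), *Tpx2* (236 and 471), *Ugt3a1* (2290.4 and 4431) and *Alas1* (9983 and 19261). *Trim7*, *Alpl* and *Tpx2* reached that level through iFIRKO liver alone. *Alas1* is the form of 5-aminolevulinate synthase used outside the red cell lineage. Its log2 ratio was 0.95, whereas *Alas2* was at 1.58.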

How the data were processed

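One control and 1 iFIRKO liver library (TruSeq stranded mRNA, NovaSeq, build mm10 per the labels) were analysed. The authors deposited normalized read counts on a log2 scale, with 1 value per gene symbol row. The aligner, counter and annotation are not given in the sources used here. In both files 62.2% and 62.1% of 53342 rows were at 0. Values were returned to the linear scale, and the first row of a repeated symbol was used. The commonest low value was taken as 1 read pair of 2 reads, which gave factors of 0.994 and 1.01 per read. Of values under 100 reads, 45.0% and 47.9% were then whole within 0.02 reads, so no count test was run and depths are estimates. Read pairs were rounded to whole numbers for the intervals. No fold was given where either library had 3 read pairs or fewer. Transcript lengths and positions came from GENCODE M21. The 8 genes, the lists and the search motifs were chosen with earlier results of these data known. Genes named beyond the 8 are the 3 most abundant of each list, those past 1.5-fold, the study's threshold, those at 0, the 5 nearest in ratio and chromosomal neighbours. *Insr*, *Apex2*, the defining erythroid markers and *Eif2ak1* were named outside that rule. A few list genes are counted but not reported here by name. Scripts were tested on simulated data. Alternatives changed the pseudocount, minimum, scaling, fold and repeated symbols. Tools were Python 3.11.15 with biopython 1.88, scipy 1.17.1, matplotlib 3.10.9, pandas 2.3.3 and numpy 2.4.6.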

Additional observations from a re-analysis of the deposited data

How the results depend on the processing

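Under 6 alternatives of pseudocount, scaling and repeated symbols the log2 ratio of the summed globins stayed between 0.956 and 0.971, that of *Alas2* between 1.526 and 1.587, that of *Bpgm* between 0.311 and 0.332, that of *Slc4a1* between 0.609 and 1.211 and that of *Klf1* between -1.067 and -0.676. Other scalings shifted all log2 ratios by 0.012 at most. Counts near the minimum depended on it. With a pseudocount of a CPM of 1, 371 of all genes were higher and 576 lower (main 597 and 976), and 2 and 1 of the red cell genes outside the 8 (main 4 and 5). Without a minimum the counts were 1956 and 2617, 9 of those red cell genes were higher and the neutrophil median was -0.741. With the minimum in both libraries, 2 and 2 of those red cell genes were called. With a minimum CPM of 5 the counts were 288 and 440, 1 and 0 of the red cell genes were called and 0 of the 8 genes were lower, because *Klf1* was no longer tested. No platelet or T and NK cell gene remained to give a median there. With a fold above 2 the counts were 209 and 267, 2 and 2 of the red cell genes were called, and 2 of the 8 genes (*Alas2* and *Slc4a1*) were higher, since the globins lie just under 2-fold. The membrane list median of 0.276 was 0.006 when no minimum was set and -0.060 when both libraries had to reach it or when it was a CPM of 5, where fewer genes are tested. The other 206 of 229 values stayed within their counting interval, or within 1.5 times for counts. For a list median the limits were the median lower and the median upper limit of its genes. They describe a typical single gene and not the median itself, so they are lax limits. No paired analysis was possible because there is only 1 library for control and 1 for iFIRKO, and for the same reason no library could be left out. Depth limits *Slc4a1* and *Klf1* most, with 14 to 53 read pairs a library.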

Other observations

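Genes that clear haemoglobin or answer red cell demand were listed separately. None of 7 tested was more than 1.5-fold higher, beside 4.46% over all tested genes. *Hp*, the plasma haptoglobin that binds free haemoglobin, had 265758 normalized reads in control liver and 212041 in iFIRKO liver, a log2 ratio of -0.33 (interval -0.34 to -0.31). *Hpx*, the heme-binding haemopexin, had 338016 and 261480, a log2 ratio of -0.37 (-0.38 to -0.36). *Hmox1*, the heme-degrading oxygenase, had 939 and 912 normalized reads, and *Cd163*, the macrophage receptor for haptoglobin with haemoglobin, had 1558 and 1359.6 at a log2 ratio of -0.20. *Slc40a1*, the iron exporter ferroportin, had 6075 and 5439. *Spic*, a factor of the macrophages that recycle red cells, was the 1 lower gene, beside 7.29% lower over all tested genes. It had 176 and 99.6 normalized reads and a log2 ratio of -0.80 (-1.38 to -0.32), beside a Kupffer cell and macrophage median of -0.62. *Epo*, the hormone erythropoietin, and *Erfe*, the erythroblast hormone erythroferrone, were at 4 read pairs or fewer in both libraries, too few for a fold.

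Of the red cell genes outside the 8, 33 were below the minimum in both libraries. Among these, 11 had more normalized reads in the iFIRKO library, 9 had more in the control library and 13 were at 0 in both, and their summed level was 98.6 and 109 normalized reads.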
